A study of Homo sapiens with 18 samples.

Results

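The genes described here code for readers of acetylated chromatin of the BET (bromodomain and extra-terminal) family and for the factors that release RNA polymerase II into productive elongation. They are BRD2, BRD3, HEXIM1, LARP7, CDK9, CCNT1, CCNT2, ELL2 and AFF4, and were taken by name as all probe sets annotated to them, 9 genes of the 19775 that have a probe set with 1 gene symbol. Of their 33 probe sets, 24 passed the filter on dim values, and each gene had at least 1 that passed. RNA came from 3 human melanoma cell lines treated with the small molecule A-485, which inhibits the acetyltransferases p300 and CBP, or with DMSO as vehicle. The groups were SKMEL5, WM2664 and A375 cells given A-485 for 6 h or 24 h, with 1 array each, against cells of the same line given DMSO for the same time, with 2 arrays each, 18 arrays in all. Every A-485 sample carries a labelled dose of 3 mM, a unit that was not checked. No knockout, transgene or second agent is named for any group, and each group is a single established line. The stated purpose was to find genes that A-485 changes differently in sensitive and resistant lines, and which line is resistant is not said. Protein and chromatin occupancy were not measured.

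BET proteins bind acetylated lysines on histones and recruit the kinase P-TEFb, made of CDK9 and cyclin T1 (CCNT1) or cyclin T2 (CCNT2), which phosphorylates RNA polymerase II and lets it leave its pause near the promoter. A large share of P-TEFb is held inactive in a particle with 7SK RNA, which LARP7 binds and stabilises, and with HEXIM1, which inhibits the kinase. Active P-TEFb also works in the super elongation complex, in which AFF4 is the scaffold and ELL2 an elongation factor. HEXIM1 is widely used as a pharmacodynamic marker because its mRNA rises when cells are given BET inhibitors.

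Intensities were scaled between arrays by quantile normalisation, values under 32 were set to 32, and log2 was taken, so a difference of 1 is a doubling. Each gene is described first by its brightest probe set. A gene is called at an adjusted p under 0.05 from limma with Benjamini-Hochberg adjustment over all 23262 probe sets tested. Adjusted p-values come from that limma fit to all 18 arrays unless another fit is named beside them. Since each A-485 group holds 1 array, its spread is assumed to be that of the DMSO pairs, and the number of arrays limits the precision. Nothing in the labels tells whether the DMSO replicates are separate cultures, and a p-value then reflects the spread among these arrays alone, which may be technical. Levels of different probe sets cannot be compared with one another, and fewer cells or less RNA per cell cannot be told apart in such samples.

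The line labels were checked against 7 melanocyte markers. All 7 were above the floor on every DMSO array of SKMEL5 and of WM2664, and 3 of 7 were so in A375. The summed marker level was lower with A-485 in each line. It was 37595 to 39870 with A-485 and 47111 to 48741 with DMSO in SKMEL5, and 18285 to 21960 and 32308 to 34746 in WM2664. In A375 it was 488 to 645 with A-485 and 1324 to 1943 with DMSO. Replicate DMSO arrays correlated at 0.9859 to 0.9921 across the tested probe sets. Transcripts that belong to another line were found on 3 DMSO arrays, at a median of 1.71% of the SKMEL5 level on WM2664 DMSO 6 h replicate 1, 0.79% of it on A375 DMSO 6 h replicate 1 and 0.81% of the A375 level on WM2664 DMSO 24 h replicate 2. Among the other pairs of an array and another line the highest value was 0.272%, of the WM2664 level on A375 DMSO 6 h replicate 1. On the arrays not named here the highest was 0.197%. Counts are therefore given with and without these 3 arrays.

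As a mean over the 3 lines, 6 of the 9 genes rose and 0 fell after 6 h of A-485, and 7 rose and 0 fell after 24 h. The 6 were HEXIM1, BRD2, BRD3, CCNT1, LARP7 and AFF4, and CCNT2 joined them at 24 h. CDK9 and ELL2 were not called in either mean. Among all 11130 genes tested, 24.5% rose and 17.2% fell in the mean at 6 h, and 28.3% rose and 23.5% fell at 24 h. The median log2 difference of the 9 genes was 0.32 at 6 h and 0.28 at 24 h, against 0.05 and 0.03 over all genes tested. Without the 3 arrays named above, 6 and 7 genes were again called. The 24 h count was lower in other fits. An additive fit of line and treatment used the 24 h arrays alone, and differences in response between lines entered its error. In this additive fit the count was 3, namely HEXIM1, LARP7 and AFF4. With unscaled arrays it was 4, the same genes and BRD2.

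Line by line at 6 h, 5 of 9 genes rose in SKMEL5 (12.8% of all genes tested), 6 rose in WM2664 (16.1%), and 3 rose in A375 (4.43%). At 24 h, 5 rose in SKMEL5 (21.8%), 5 in WM2664 (19.2%) and 3 in A375 (7.82%). In A375 1 gene fell at each time, ELL2, where 7.03% of all genes fell at 6 h and 8.56% at 24 h. Without the 3 arrays the numbers called in either direction were 2, 4 and 1 in SKMEL5, WM2664 and A375 at 6 h, and 2, 1 and 2 at 24 h, in a fit with fewer DMSO pairs to estimate the spread. In that fit the share called at 24 h was smaller for the 9 genes than for all probe sets tested in SKMEL5 and WM2664. It was larger for the 9 genes in A375 at 24 h and in all 3 lines at 6 h. With all 18 arrays, HEXIM1 and BRD2 were 2 of the 231 genes (2.08%) that rose in each of the 3 lines at 6 h. LARP7 and AFF4 were 2 of the 362 (3.25%) that did so at 24 h.

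**Figure D1:**
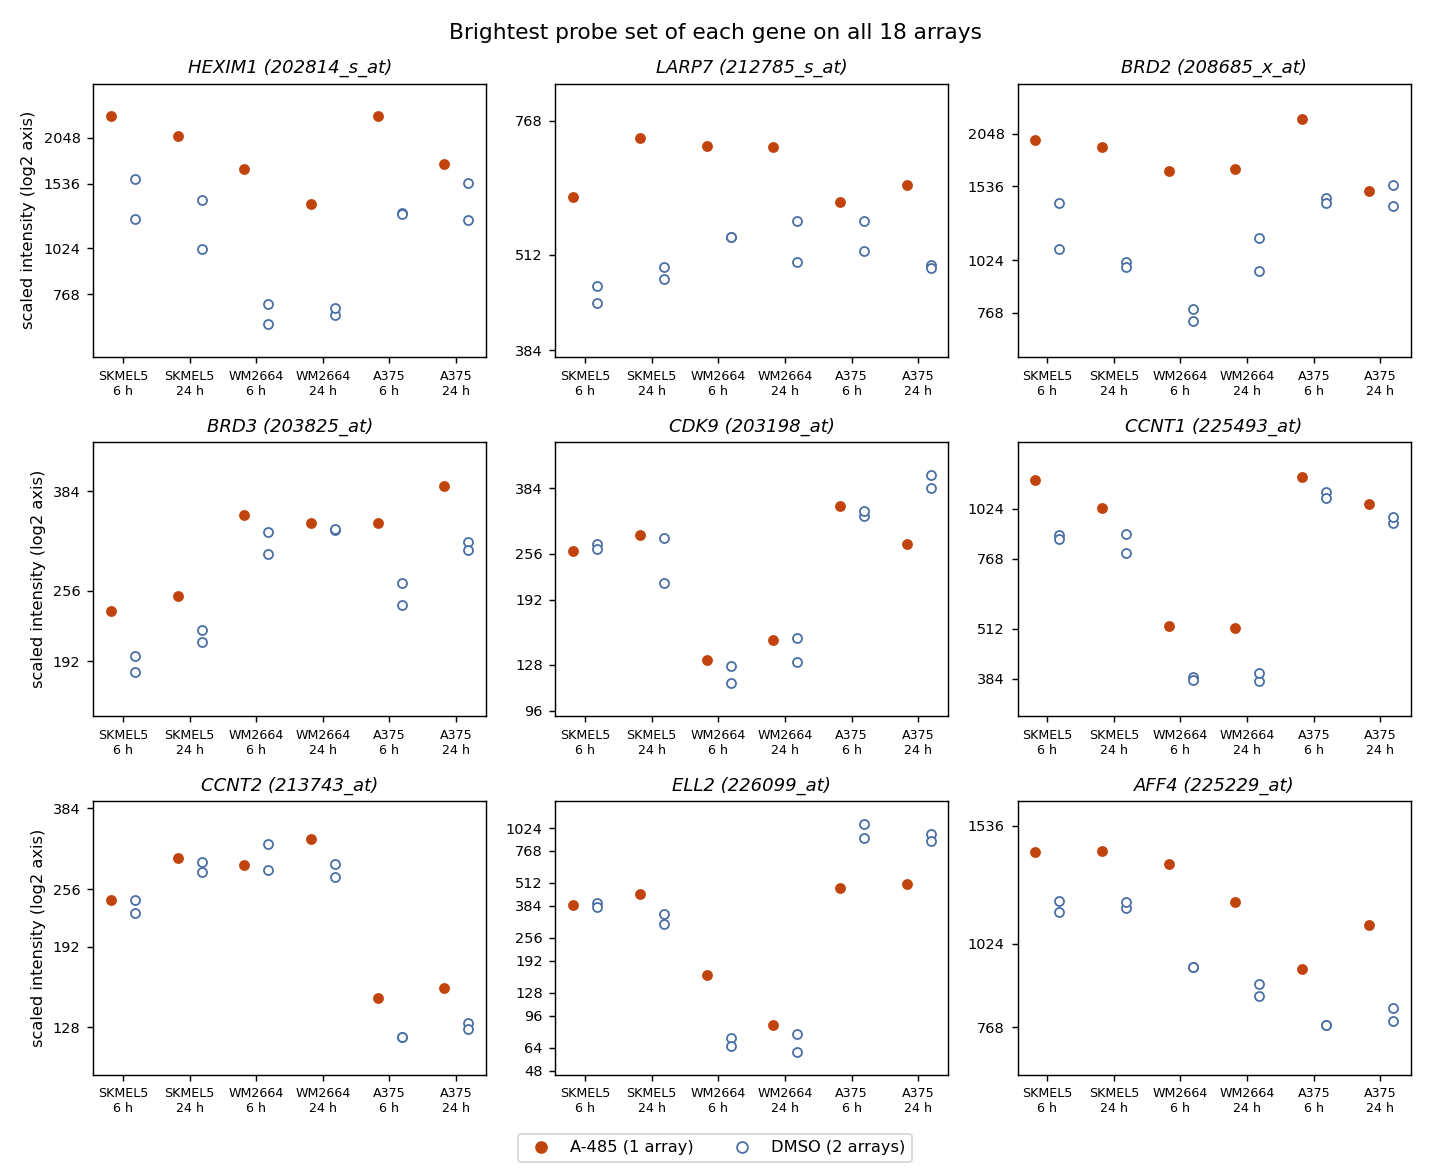
Scaled intensity (log2 axis) of the brightest probe set of each gene on all 18 arrays, by line and time. Filled circles are A-485 arrays (1 per group) and open circles DMSO arrays (2 per group). The A-485 array of HEXIM1 lies above both DMSO arrays in all 6 settings, at 1678 against 722.6 and 634.8 in WM2664 at 6 h, while that of ELL2 lies below both in A375, at 482.4 against 1081 and 904.9 at 6 h.

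HEXIM1, the inhibitor of P-TEFb, had the largest rise of the 9 genes in the mean of lines at both times. In SKMEL5 its intensity was 2342 with A-485 against 1581 and 1227 with DMSO at 6 h, and 2068 against 1383 and 1018 at 24 h. WM2664 had 1678 with A-485 against 722.6 and 634.8 with DMSO at 6 h, and 1352 against 674.6 and 705.6 at 24 h. A375 had 2340 with A-485 against 1277 and 1272 with DMSO at 6 h, and 1739 against 1543 and 1226 at 24 h. The A-485 array was the highest of its group of 3 in all 6 settings, by the smallest margin in A375 at 24 h. At 6 h the log2 difference was 0.75 ± 0.22 in SKMEL5 (SE; adjusted p = 0.0467), 1.31 ± 0.22 in WM2664 (adjusted p = 0.00377) and 0.88 ± 0.22 in A375 (adjusted p = 0.0439). At 24 h it was 0.80 in SKMEL5 (adjusted p = 0.024) and 0.97 in WM2664 (adjusted p = 0.0116), and A375 was not called at 0.34 (95% interval -0.17 to 0.84, adjusted p = 0.385). The mean over lines was 0.98 ± 0.13 at 6 h, a fold of 1.97 (adjusted p = 0.000612), and 0.70 ± 0.13 at 24 h, a fold of 1.63 (adjusted p = 0.00246). Of the 11130 genes tested, 60 had a larger mean rise at 6 h and 360 at 24 h.

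The second HEXIM1 probe set, 202815_s_at, was dimmer, at 165 to 466 over the 18 arrays, and gave the same calls in each line. Its differences at 6 h were 0.48 in SKMEL5, 0.77 in WM2664 and 0.73 in A375. At 24 h they were 1.18 in SKMEL5, 0.92 in WM2664 and 0.28 in A375 (not called, adjusted p = 0.098). On this probe set the SKMEL5 response was larger at 24 h than at 6 h by 0.71 (adjusted p = 0.0157), while on the brightest one the SKMEL5 values at the 2 times were 0.80 and 0.75. The third set, 238442_at, was at the floor on all 18 arrays. The single-line calls of the brightest set at 6 h rested on few arrays and on the processing. Among 8 other processing settings, the 6 h call was lost in 6 for SKMEL5, in 5 for A375 and in 1 for WM2664. A375 was no longer called without DMSO 6 h replicate 1 (0.88, adjusted p = 0.125) or replicate 2 (0.87, adjusted p = 0.129). SKMEL5 was not called without DMSO 6 h replicate 2 (0.57, adjusted p = 0.164), nor at 24 h without DMSO 24 h replicate 2 (0.58, adjusted p = 0.085). In a fit without the 3 arrays with transcripts of another line, no single line kept a HEXIM1 call (WM2664 at 6 h 1.40, adjusted p = 0.0565), and both means were still called.

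The RefSeq promoter table (GRCh38.p14) lists 13 windows, from 250 bases before to 50 after a start, for 8 of the 9 genes. ELL2 is not among them. The windows were searched on both strands for known promoter motifs. These were the TATA box, spelled TATAAA, the CCAAT box, and the GC box, which reads GGGCGG. Also searched were the cAMP response element TGACGTCA, its shorter form TGACG, which was also counted inside the longer one, and the E-box, which reads CACGTG. The bases before the start are shown for HEXIM1 and AFF4, which rose in both means, and for CDK9, which was called in neither, so that a gene of each kind can be read beside its values. Capitals mark every match, and positions count back from the start, with the base before it at -1.
HEXIM1 (chr17:45148225-45148474, plus strand): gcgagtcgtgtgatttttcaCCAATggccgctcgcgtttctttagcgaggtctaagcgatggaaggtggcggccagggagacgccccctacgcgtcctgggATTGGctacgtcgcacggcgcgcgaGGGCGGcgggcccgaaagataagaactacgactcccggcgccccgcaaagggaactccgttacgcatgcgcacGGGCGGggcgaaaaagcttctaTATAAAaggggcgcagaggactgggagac
AFF4 (chr5:132963635-132963884, minus strand): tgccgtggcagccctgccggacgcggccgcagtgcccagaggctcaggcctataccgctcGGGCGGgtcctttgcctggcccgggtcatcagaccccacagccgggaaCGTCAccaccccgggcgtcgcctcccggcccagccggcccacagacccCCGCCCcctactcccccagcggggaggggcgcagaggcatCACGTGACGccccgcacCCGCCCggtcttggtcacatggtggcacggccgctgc
CDK9 (chr9:127785784-127786033, plus strand): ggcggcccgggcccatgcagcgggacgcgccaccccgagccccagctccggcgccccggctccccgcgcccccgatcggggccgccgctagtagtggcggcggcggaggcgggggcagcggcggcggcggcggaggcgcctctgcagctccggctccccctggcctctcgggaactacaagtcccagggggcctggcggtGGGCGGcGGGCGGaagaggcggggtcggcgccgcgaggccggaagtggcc

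The HEXIM1 window held TATAAA at -29, CCAAT at -230 and, on the other strand, at -149, and GGGCGG at -124 and -51. It was the only one of the 13 windows with TATAAA, which 11.5% of all 35116 windows held. AFF4 had GGGCGG at -190, -94 and -37, TGACG at -142 and -50, CACGTG at -54, which overlaps the TGACG at -50, and a further TGACG that lies across the start and is not printed. CDK9 had GGGCGG at -50 and -43 and no other motif searched. GGGCGG was in 11 of the 13 windows, CCAAT and TGACG in 4 each, CACGTG in 2 and TGACGTCA in 1, of LARP7. The shares of all windows were 45% for GGGCGG, 34.6% for CCAAT, 24.6% for TGACG, 7.26% for CACGTG and 1.85% for TGACGTCA. A match here is a string of letters in the window, and binding was not measured.

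LARP7, the protein that binds 7SK RNA, rose by less than HEXIM1. SKMEL5 had 609.9 with A-485 against 466.5 and 443.1 with DMSO at 6 h, and 728.7 against 475.8 and 493.0 at 24 h. In WM2664 LARP7 was 712.3 with A-485 against 541.0 and 540.9 with DMSO at 6 h, and 709.5 against 567.5 and 501.5 at 24 h. In A375 it was 600.3 with A-485 against 567.7 and 517.5 with DMSO at 6 h, and 633.2 against 495.8 and 492.0 at 24 h. Every A-485 array was above both its DMSO arrays. At 6 h the differences were 0.42 ± 0.10 in SKMEL5 (adjusted p = 0.0186), 0.40 ± 0.10 in WM2664 (adjusted p = 0.0204) and 0.15 ± 0.10 in A375, which was not called (adjusted p = 0.452). At 24 h all 3 lines were called, with 0.59 in SKMEL5 (adjusted p = 0.00253), 0.41 in WM2664 (adjusted p = 0.0142) and 0.36 in A375 (adjusted p = 0.0462). The mean was 0.32 ± 0.06 at 6 h (adjusted p = 0.00279) and 0.45 ± 0.06 at 24 h (adjusted p = 0.000358). Among 8 other processing settings, the 24 h call was lost in 5 for A375, in 3 for WM2664 and in 2 for SKMEL5. The 6 h call was lost in 2 for SKMEL5 and in 1 for WM2664. The A375 call at 24 h was lost without DMSO 24 h replicate 1 (0.36, adjusted p = 0.113) or replicate 2 (0.35, adjusted p = 0.121), the WM2664 call at 6 h without DMSO 6 h replicate 1 (adjusted p = 0.0591) or replicate 2 (adjusted p = 0.0641), and the SKMEL5 call at 6 h without DMSO 6 h replicate 2 (0.39, adjusted p = 0.0732). A second LARP7 probe set, 241385_at, with intensities of 39.2 to 94.4, gave -0.18 in SKMEL5 and 0.03 in WM2664 at 24 h, neither called, and 0.83 in A375 (adjusted p = 0.037), so the sets disagree on SKMEL5 and WM2664 at that time.

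**Figure D2:**
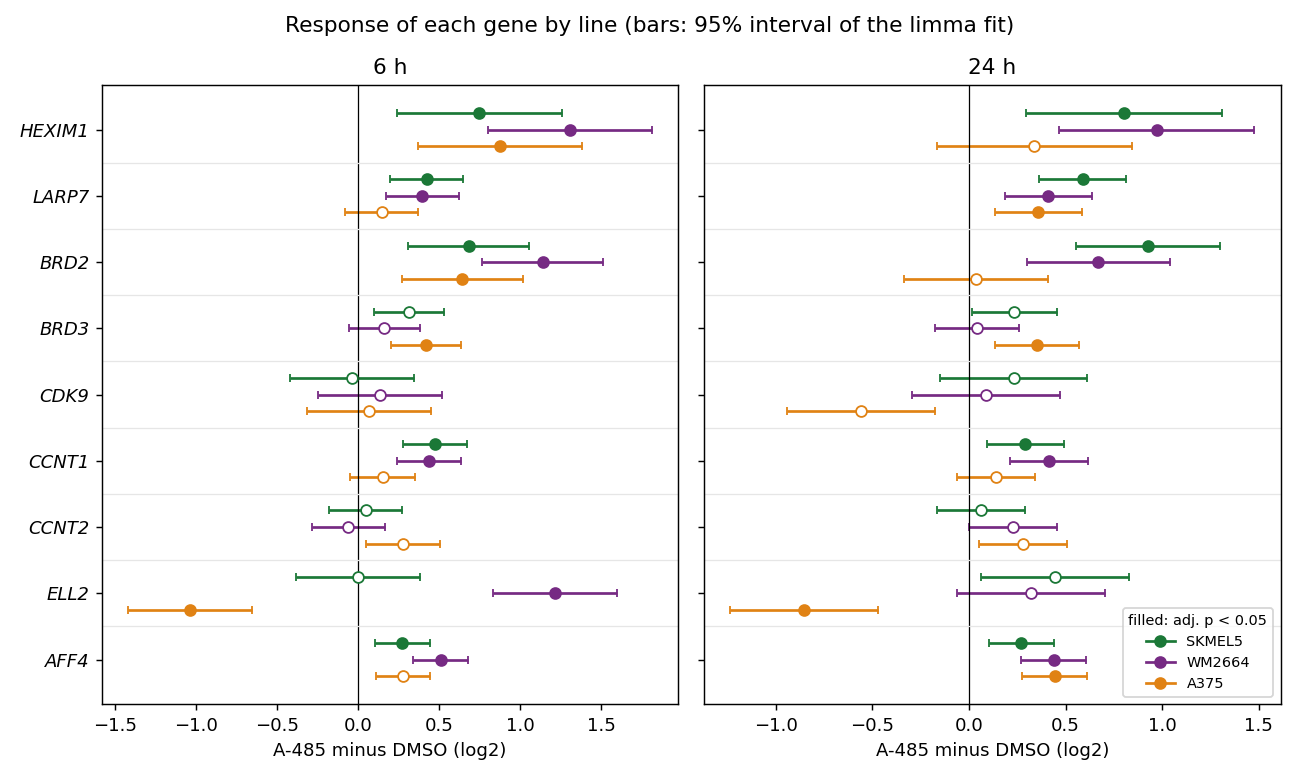
A-485 minus DMSO (log2) of each gene's brightest probe set in each line at 6 h (left) and 24 h (right), with the 95% interval of the limma fit. Filled circles are called at an adjusted p under 0.05. HEXIM1 and BRD2 are filled in all 3 lines at 6 h, and their A375 values at 24 h, 0.34 and 0.04, are open. ELL2 lies at 1.22 in WM2664 and -1.04 in A375 at 6 h.

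BRD2, a BET protein that binds acetylated histone H4, rose in all 3 lines at 6 h and in SKMEL5 and WM2664 at 24 h. Its intensity in SKMEL5 was 1981 with A-485 against 1400 and 1090 with DMSO at 6 h, and 1902 against 1014 and 987.2 at 24 h. In WM2664 it was 1667 with A-485 against 782.2 and 731.6 with DMSO at 6 h, and 1682 against 965.8 and 1157 at 24 h. A375 had 2214 with A-485 against 1439 and 1398 with DMSO at 6 h, and 1497 against 1546 and 1380 at 24 h, where the A-485 array lay between the DMSO arrays. The differences at 6 h were 0.68 ± 0.16 in SKMEL5 (adjusted p = 0.0207), 1.14 ± 0.16 in WM2664 (adjusted p = 0.00164) and 0.64 ± 0.16 in A375 (adjusted p = 0.0444). At 24 h they were 0.93 in SKMEL5 (adjusted p = 0.00321), 0.67 in WM2664 (adjusted p = 0.0151) and 0.04 in A375 (95% interval -0.34 to 0.41, adjusted p = 0.966). In the mean over lines BRD2 was higher by 0.82 ± 0.09 at 6 h, a fold of 1.77 (adjusted p = 0.00031), and by 0.54 ± 0.09 at 24 h, a fold of 1.46 (adjusted p = 0.0019). A larger mean rise was seen for 126 of 11130 genes at 6 h and for 820 at 24 h.

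The brightest BRD2 set is an _x_at set, a class whose probes can also match other transcripts. The other sets, 214911_s_at and 208686_s_at, gave 0.47 (not called, adjusted p = 0.0844) and 0.64 in SKMEL5 at 6 h, 0.81 and 0.82 in WM2664, and 0.69 and 0.58 in A375. At 24 h they gave 0.85 and 0.68 in SKMEL5, 0.75 and 0.88 in WM2664, and 0.06 and 0.08 in A375, where neither was called. Leaving out A375 DMSO 6 h replicate 1 (0.66, adjusted p = 0.114) or replicate 2 (0.62, adjusted p = 0.14) ended the A375 call at 6 h on the brightest set. The SKMEL5 call at 6 h was lost without DMSO 6 h replicate 2 (0.50, adjusted p = 0.0653), and the WM2664 call at 24 h without DMSO 24 h replicate 1 (0.54, adjusted p = 0.0593). Among 8 other processing settings, the 6 h call was lost in 5 for A375 and in 3 for SKMEL5. The 24 h call was lost in 2 for WM2664 and in 1 for SKMEL5. In the additive fit the mean at 24 h was not called (0.54, adjusted p = 0.057).

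BRD3 is also a BET gene. Of the 2 remaining BET genes, BRDT had a probe set that did not pass the filter on dim values, and the other was not analysed here. The intensity of BRD3 in SKMEL5 was 236.0 with A-485 against 196.4 and 183.5 with DMSO at 6 h, and 250.2 against 218.0 and 207.3 at 24 h. WM2664 had 348.7 with A-485 against 297.7 and 325.7 with DMSO at 6 h, and 337.9 against 327.9 and 329.4 at 24 h. A375 had 337.7 with A-485 against 264.1 and 241.1 with DMSO at 6 h, and 392.1 against 312.0 and 302.0 at 24 h. The A-485 array was highest in all 6 settings, by margins that were small in WM2664. BRD3 was called only in A375, at 0.42 ± 0.09 at 6 h (adjusted p = 0.0287) and 0.35 ± 0.09 at 24 h (adjusted p = 0.0432), while SKMEL5 had 0.31 at 6 h (adjusted p = 0.0512) and WM2664 0.04 at 24 h (95% interval -0.18 to 0.26). The A375 minus other lines difference of the response was 0.18 at 6 h (adjusted p = 0.438) and 0.22 at 24 h (adjusted p = 0.243), so a difference between the lines was not called. Both means were, at 0.30 (adjusted p = 0.00346) and 0.21 (adjusted p = 0.0142). Without A375 A-485 24 h replicate 1 the 24 h mean, then of SKMEL5 and WM2664, was 0.14 (adjusted p = 0.129). Without SKMEL5 A-485 24 h replicate 1 the mean, then of WM2664 and A375, was 0.20 (adjusted p = 0.054). The 24 h mean of all 3 lines was not called in the additive fit (adjusted p = 0.122) or with unscaled arrays (0.30, adjusted p = 0.186). Among 8 other processing settings, the A375 call was lost in 4 at 6 h and in 5 at 24 h. The A375 calls were lost without DMSO 6 h replicate 2 (0.35, adjusted p = 0.114), without DMSO 24 h replicate 1 (0.38, adjusted p = 0.0912) and without DMSO 24 h replicate 2 (0.33, adjusted p = 0.128). The second set, 212547_at, had its only single-line call in SKMEL5 at 24 h (0.58, adjusted p = 0.0319) and gave 0.11 in A375 at 6 h, which was not called.

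CDK9, the P-TEFb kinase, was called in no line and in no mean. SKMEL5 had 260.4 with A-485 against 271.6 and 263.7 with DMSO at 6 h, and 287.4 against 282.2 and 212.5 at 24 h. WM2664 had 132.1 with A-485 against 126.8 and 114.2 with DMSO at 6 h, and 149.4 against 130.6 and 151.6 at 24 h. A375 had 344.3 with A-485 against 324.2 and 333.8 with DMSO at 6 h, and 271.4 against 416.9 and 384.4 at 24 h. Only the last of these arrays stood clearly apart from its DMSO pair, below it, with a difference of -0.56 ± 0.17 (95% interval -0.94 to -0.18) that was not called (adjusted p = 0.0619). The means over lines were 0.05 (95% interval -0.17 to 0.27, adjusted p = 0.699) at 6 h and -0.08 (95% interval -0.30 to 0.14, adjusted p = 0.52) at 24 h. At 24 h the response of A375 was lower than that of the other lines by -0.72 ± 0.20 on the log2 scale (adjusted p = 0.0415). That call ended when any of 5 arrays of 24 h was left out: A375 DMSO replicate 1 (-0.66, adjusted p = 0.11) or replicate 2 (-0.78, adjusted p = 0.0705), SKMEL5 A-485 (-0.65, adjusted p = 0.107), WM2664 A-485 (-0.79, adjusted p = 0.0524) or WM2664 DMSO replicate 1 (-0.67, adjusted p = 0.0659). Leaving out the A-485 array of SKMEL5 or WM2664 drops that line, so A375 is then compared with the remaining line alone. The other CDK9 sets did not pass the filter on dim values.

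CCNT1, which codes for cyclin T1, rose in SKMEL5 and WM2664 at both times. SKMEL5 had 1208 with A-485 against 881.1 and 857.2 with DMSO at 6 h, and 1026 against 794.5 and 885.4 at 24 h. WM2664 had 522.0 with A-485 against 389.2 and 381.3 with DMSO at 6 h, and 515.9 against 378.5 and 396.2 at 24 h. A375 had 1229 with A-485 against 1124 and 1087 with DMSO at 6 h, and 1054 against 941.3 and 973.7 at 24 h. No A-485 array overlapped its DMSO pair. The differences at 6 h were 0.47 ± 0.09 in SKMEL5 (adjusted p = 0.00728), 0.44 ± 0.09 in WM2664 (adjusted p = 0.00814) and 0.15 ± 0.09 in A375 (adjusted p = 0.364). At 24 h they were 0.29 in SKMEL5 (adjusted p = 0.033), 0.41 in WM2664 (adjusted p = 0.00833) and 0.14 in A375 (adjusted p = 0.363). The mean was 0.36 ± 0.05 at 6 h (adjusted p = 0.000939) and 0.28 ± 0.05 at 24 h (adjusted p = 0.0023). The 24 h mean was not called in the additive fit (adjusted p = 0.0603) or with unscaled arrays (0.34, adjusted p = 0.112). Without SKMEL5 DMSO 24 h replicate 1 the SKMEL5 call at 24 h was lost (0.21). Among 8 other processing settings, the 24 h call was lost in 4 for SKMEL5 and in 3 for WM2664. The 6 h call was lost in 1 for SKMEL5 and in 2 for WM2664. The dimmer set 206967_at gave values of 0.16 to 0.71 and no call.

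CCNT2, which codes for cyclin T2, was called in no single line. Its A-485 array had 242.2 against 242.5 and 227.0 with DMSO in SKMEL5 at 6 h, and 298.9 against 278.7 and 293.8 at 24 h. WM2664 had 289.2 with A-485 against 282.5 and 321.5 with DMSO at 6 h, and 329.3 against 290.6 and 272.8 at 24 h. In A375 CCNT2 was 148.2 with A-485 against 122.0 and 122.2 with DMSO at 6 h, and 156.3 against 130.8 and 126.9 at 24 h. The A-485 array stood above both DMSO arrays in A375 at both times and in SKMEL5 and WM2664 at 24 h. The mean was 0.09 at 6 h (95% interval -0.04 to 0.22, adjusted p = 0.262) and 0.19 ± 0.06 at 24 h (adjusted p = 0.0262). The 24 h call was lost when WM2664 (0.17, adjusted p = 0.0943) or A375 (0.14, adjusted p = 0.127) left the mean with its A-485 array. Nor did the call hold without DMSO 24 h replicate 2 of WM2664 (0.17) or of A375 (0.18). It was also lost in the additive fit (adjusted p = 0.135) and with unscaled arrays (adjusted p = 0.201). The mean of all CCNT2 sets, with 229184_at that did not pass the filter, was not called (0.09, adjusted p = 0.13). The other sets, 204645_at and 214638_s_at, had no call in either mean.

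AFF4, the scaffold of the super elongation complex, rose in SKMEL5 and WM2664 at both times and in A375 at 24 h. SKMEL5 had 1406 with A-485 against 1186 and 1141 with DMSO at 6 h, and 1410 against 1158 and 1181 at 24 h. WM2664 had 1345 with A-485 against 945.5 and 943.7 with DMSO at 6 h, and 1183 against 855.3 and 890.5 at 24 h. A375 had 939.5 with A-485 against 773.5 and 775.5 with DMSO at 6 h, and 1092 against 821.3 and 784.8 at 24 h. Each A-485 array exceeded both its DMSO arrays. At 6 h the differences were 0.27 ± 0.07 in SKMEL5 (adjusted p = 0.0328), 0.51 ± 0.07 in WM2664 (adjusted p = 0.00169) and 0.28 ± 0.07 in A375, which was just not called (adjusted p = 0.0516). At 24 h they were 0.27 in SKMEL5 (adjusted p = 0.0223), 0.44 in WM2664 (adjusted p = 0.00288) and 0.44 in A375 (adjusted p = 0.00563). The mean was 0.35 ± 0.04 at 6 h (adjusted p = 0.00039) and 0.38 ± 0.04 at 24 h (adjusted p = 0.000183). In SKMEL5 the 6 h call was lost without DMSO 6 h replicate 1 (0.30, adjusted p = 0.0667) or replicate 2 (0.25, adjusted p = 0.115), and the 24 h call without DMSO 24 h replicate 1 (0.26, adjusted p = 0.0525). Of 5 dimmer AFF4 sets that were tested, 239439_at and 243487_at had single-line calls, all higher and all in WM2664. With the mean of all AFF4 sets, those that did not pass the filter included, the WM2664 call at 6 h was lost (0.33, adjusted p = 0.0575). So were the 24 h calls in SKMEL5 (0.24, adjusted p = 0.118) and A375 (0.35, adjusted p = 0.0648). With unscaled arrays no line was called at 24 h (adjusted p of 0.072 to 0.776), nor SKMEL5 at 6 h (adjusted p = 0.161).

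**Figure D3:**
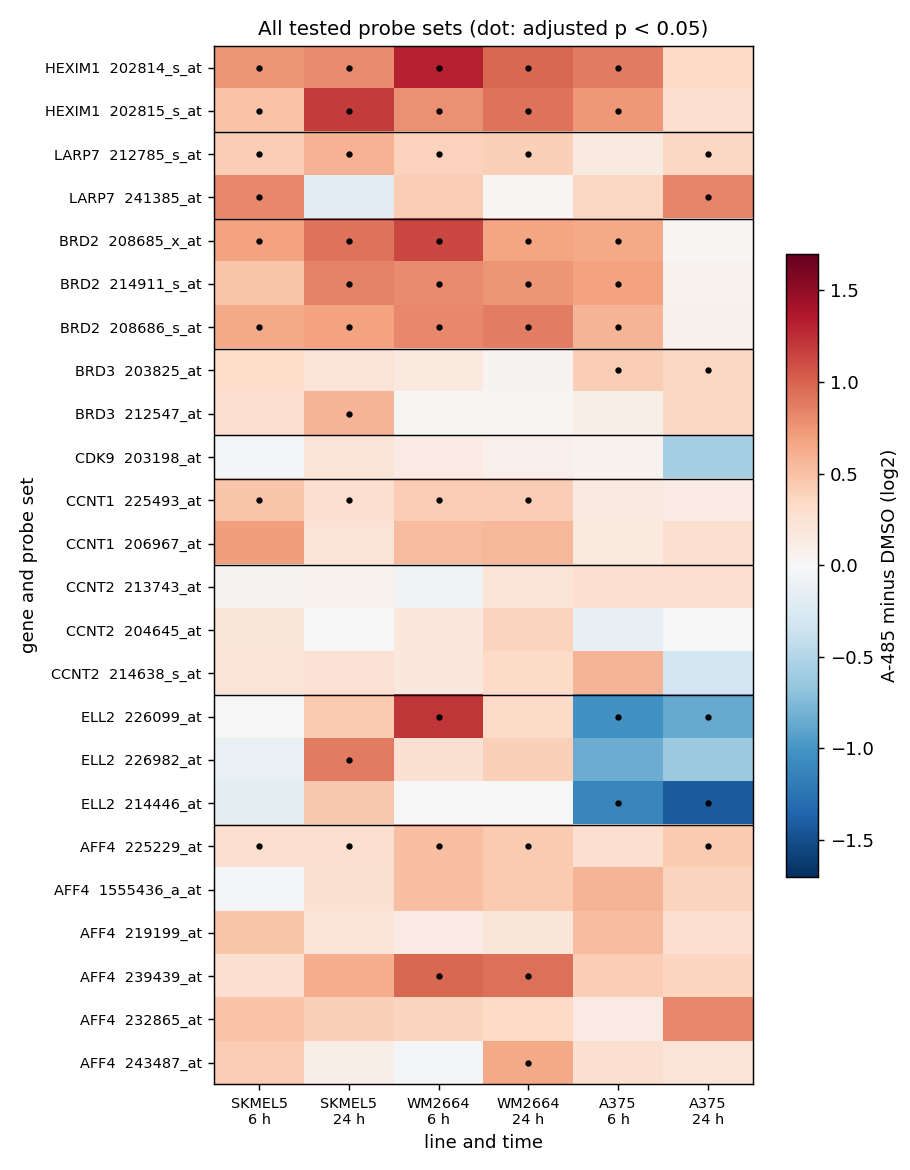
A-485 minus DMSO (log2, colour) of all 24 tested probe sets of the 9 genes by line and time, with a dot where the adjusted p is under 0.05. The HEXIM1 and BRD2 sets are red in SKMEL5 and WM2664 and pale in A375 at 24 h, and the 3 ELL2 sets are blue in A375 at both times.

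ELL2, an elongation factor of the RNA polymerase II complex, fell in A375 at both times and rose in WM2664 at 6 h on its brightest set, 226099_at. A375 had 482.4 with A-485 against 1081 and 904.9 with DMSO at 6 h, and 503.1 against 954.5 and 864.8 at 24 h. WM2664 had 160.1 with A-485 against 72.2 and 65.7 with DMSO at 6 h, and 84.8 against 60.5 and 76.3 at 24 h. SKMEL5 had 387.2 with A-485 against 396.8 and 377.5 with DMSO at 6 h, and 444.1 against 306.5 and 347.9 at 24 h. The A-485 array was below both DMSO arrays in A375 at both times, above both in WM2664 at both times, and in SKMEL5 it was between them at 6 h and above both at 24 h. In A375 ELL2 fell by 1.04 ± 0.17 at 6 h (adjusted p = 0.00645) and by 0.85 ± 0.17 at 24 h (adjusted p = 0.0125). In WM2664 it rose by 1.22 ± 0.17 at 6 h (adjusted p = 0.00137) and was not called at 24 h (0.32, adjusted p = 0.187). SKMEL5 had 0.00 at 6 h (95% interval -0.38 to 0.38) and 0.44 at 24 h (adjusted p = 0.0733). The WM2664 DMSO values lie within about 2-fold of the floor of 32, so the size of that rise is not exact. The WM2664 rise rests on this set. On 226982_at the WM2664 A-485 array at 6 h, at 67.4, lay between the DMSO arrays, at 46.9 and 67.7, with a difference of 0.26 (adjusted p = 0.513), and the mean of the ELL2 sets gave 0.34 (adjusted p = 0.0354). SKMEL5 was called on 226982_at at 24 h (0.88, adjusted p = 0.0253). Without A375 DMSO 24 h replicate 1 the A375 difference at 24 h was -0.78 (adjusted p = 0.0561).

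The test of the difference between lines gave -1.64 ± 0.20 for A375 minus the other lines at 6 h (adjusted p = 0.00194) and -1.23 ± 0.20 at 24 h (adjusted p = 0.00406) for ELL2. It was the only one of the 9 genes called in that comparison at 6 h, where 9.82% of all genes were called in either direction. At 24 h BRD2 (-0.76 ± 0.20, adjusted p = 0.0303), CDK9 and ELL2 were called, all lower in A375, where 23.1% of all genes were called. HEXIM1 had -0.55 ± 0.27 there on its brightest set (adjusted p = 0.202) and -0.77 ± 0.12 on the other (adjusted p = 0.00295). Without the 3 arrays with transcripts of another line, 1 gene was called at each time. Without SKMEL5 A-485 24 h, which leaves WM2664 alone beside A375, the BRD2 call was lost (-0.63, adjusted p = 0.105). The BRD2 call was also lost without A375 DMSO 24 h replicate 1 (-0.68) or SKMEL5 DMSO 24 h replicate 2 (-0.75). ELL2 set 226982_at gave -0.84 in A375 at 6 h (adjusted p = 0.0749) and -0.63 at 24 h (adjusted p = 0.136), and set 214446_at fell by 1.13 (adjusted p = 0.00626) and by 1.41 (adjusted p = 0.00155) in A375. On 214446_at WM2664 was at the floor on all 6 arrays, so this set shows nothing about that line. A mean over lines describes ELL2 poorly: it was 0.06 at 6 h and -0.03 at 24 h. Without the WM2664 A-485 array at 6 h, the mean of SKMEL5 and A375 was -0.52 (adjusted p = 0.015). Without the A375 A-485 array, the mean of SKMEL5 and WM2664 was 0.61 at 6 h (adjusted p = 0.00476) and 0.38 at 24 h (adjusted p = 0.0288).

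The mean response of the 9 genes was not shown to differ between 24 h and 6 h. In the 24 h minus 6 h comparison 0 of the 9 were called by limma, where 19.2% of all genes were. BRD2 had -0.28 ± 0.13 (adjusted p = 0.199), HEXIM1 had -0.27 ± 0.18 (adjusted p = 0.35) and LARP7 had 0.13 ± 0.08 (adjusted p = 0.319).

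In DMSO the lines differed in the level of nearly all 9 genes, as they did for most genes tested. With both times averaged, 8 of 9 were called for A375 minus SKMEL5 (79.6% of all genes), 8 for A375 minus WM2664 (79.2%) and 9 for SKMEL5 minus WM2664 (71.1%). On its brightest set ELL2 had the widest range, at 951 ± 93.8 in A375, 357 ± 39.3 in SKMEL5 and 68.7 ± 6.98 in WM2664 (mean intensity ± SD, n = 4 arrays each). A375 exceeded WM2664 by 3.79 ± 0.10 on the log2 scale, a fold of 13.9 (adjusted p = 3.41e-09), and no neighbours in that order overlapped. The size depends on the probe set, and WM2664 lies near the floor on this one. The mean of all ELL2 sets, those at the floor in WM2664 included, gave 2.51, and 226982_at gave 2.44, a fold of 5.44. On ELL2 set 226982_at A375 was again highest, at 285 ± 7, with SKMEL5 at 56.2 ± 5.79 and WM2664 at 53.2 ± 11.4, which overlap. CDK9 had the same order, at 365 ± 43.6 in A375, 258 ± 31.0 in SKMEL5 and 131 ± 15.5 in WM2664. CCNT1 followed it too, at 1032 ± 87.9 in A375, 855 ± 41.9 in SKMEL5 and 386 ± 8.02 in WM2664, with A375 above SKMEL5 by only 0.27 (adjusted p = 0.00115).

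The cyclin T genes ran in opposite orders in DMSO. CCNT2 was lowest in A375 on all 3 sets, and on the brightest at 125 ± 4.22, against 261 ± 31.1 in SKMEL5 and 292 ± 21 in WM2664. The difference of A375 from WM2664 was -1.22 ± 0.06 (adjusted p = 1.56e-07) for CCNT2 and 1.41 ± 0.05 (adjusted p = 2.71e-08) for CCNT1. SKMEL5 minus WM2664 was -0.17 for CCNT2 (adjusted p = 0.0276), and this small difference was not stable. It was not called with a common 75th percentile (-0.14, adjusted p = 0.0536) or with unscaled arrays (-0.046, adjusted p = 0.827). The call was also lost without SKMEL5 DMSO 6 h replicate 2, SKMEL5 DMSO 24 h replicate 1, WM2664 DMSO 6 h replicate 2 or WM2664 DMSO 24 h replicate 1 (-0.15 to -0.12, adjusted p of 0.073 to 0.0888).

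On its brightest set HEXIM1 was at 1329 ± 144 in A375 and 1302 ± 239 in SKMEL5, and lowest in WM2664, at 684 ± 38.6. A375 and SKMEL5 did not differ beyond their spread there, with a difference of 0.04 (95% interval -0.25 to 0.33). The second HEXIM1 set gave another order, with SKMEL5 below WM2664 by -0.43 (adjusted p = 0.00015) and below A375, at 274 ± 16.1 in A375, 185 ± 15.9 in SKMEL5 and 249 ± 4.09 in WM2664, so the order of the lines in HEXIM1 is not settled by these probe sets. BRD2 was at 1441 ± 74.4 in A375 and 1123 ± 190 in SKMEL5, and also lowest in WM2664, at 909 ± 194. SKMEL5 minus WM2664 was 0.31 for BRD2 (adjusted p = 0.0158), a call that was lost without WM2664 DMSO 6 h replicate 2 (0.29, adjusted p = 0.0509) or WM2664 DMSO 24 h replicate 1 (0.25, adjusted p = 0.0551), and with no filter (adjusted p = 0.0559). BRD3 was at 280 ± 33.0 in A375, 201 ± 14.8 in SKMEL5 and, highest, 320 ± 15 in WM2664. A375 minus WM2664 was -0.20 for BRD3 (adjusted p = 0.00899), and its sign changed when the arrays were left unscaled (0.096).

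LARP7 differed little between lines, at 518 ± 34.8 in A375, 470 ± 20.8 in SKMEL5 and 538 ± 27.2 in WM2664. A375 minus WM2664 was -0.05 for LARP7 (95% interval -0.18 to 0.08, not called), and A375 minus SKMEL5 was 0.14 (adjusted p = 0.0484). That small difference was not called when any 1 DMSO array of these lines other than A375 DMSO 6 h replicate 2 was left out (0.11 to 0.16, adjusted p of 0.0609 to 0.151). AFF4 was at 789 ± 22.2 in A375, 1166 ± 21.1 in SKMEL5 and 909 ± 43.8 in WM2664 on its brightest set, and all 3 pairs were called. The AFF4 sets disagree on this order, since the mean of all its sets put A375 above WM2664 by 0.56 and above SKMEL5 by 0.074.

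Across the 12 group means, with each line's mean subtracted, BRD2 and HEXIM1 had a Pearson correlation of 0.937, HEXIM1 and CCNT1 of 0.917, and BRD2 and CCNT1 of 0.909. The lowest was that of CCNT2 and ELL2, at -0.438. These points share arrays, scaling and DMSO groups, and the values are a description. The genes whose pattern over the 12 means was most like that of HEXIM1, among 11129 compared, were CCDC181 (0.981), NRDE2 (0.980) and USP30 (0.980). For BRD2 they were DYNLL1 (0.970), MSRB1 (0.967) and DLG3 (0.966). DYNLL1 matched in shape and not in size, with a difference of 0.22 in WM2664 at 6 h where BRD2 had 1.14.

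Of 34 other genes of the elongation machinery that were tested, 11 rose (32.4%, against 24.5% of all genes) and 0 fell in the mean over lines at 6 h. Their median difference was 0.11, against 0.05 over all genes tested. At 24 h 15 rose (44.1%, against 28.3%) and 2 fell (5.88%, against 23.5%), with a median of 0.15 against 0.03. By line at 6 h, 6 rose in SKMEL5 (17.6%, against 12.8% of all genes) and 7 in WM2664 (20.6%, against 16.1%). A375 had 3 that rose (8.82%, against 4.43%), and 0 fell in any line. At 24 h 6 rose in SKMEL5 (17.6%, against 21.8%) and 12 in WM2664 (35.3%, against 19.2%). In A375 1 rose (2.94%, against 7.82%). Each line had 2 that fell at 24 h (5.88%, where 8.56% of all genes fell in A375). The share that rose at 24 h was above that of all genes only in WM2664. In the list of the PAF1 complex and SPT6, whose products travel with RNA polymerase II, 5 of 8 rose at 6 h: CTR9 (0.63 ± 0.04, adjusted p = 2.78e-05), LEO1 (0.51 ± 0.08, adjusted p = 0.0017), PAF1 (0.43 ± 0.08, adjusted p = 0.00363), CDC73 (0.34) and RTF1 (0.28). At 24 h PAF1 (0.52), RTF1 (0.42), CDC73 (0.40) and CTR9 (0.32) rose, LEO1 was not called (0.16), and SKIC8 fell (-0.40 ± 0.06, adjusted p = 0.00121).

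In a list of 10 other genes of the super elongation complex and related factors, such as ICE1, 3 rose at 6 h and 4 rose and 1 fell at 24 h. EAF1 and EAF2, which bind ELL proteins, had the largest rises, with 0.68 ± 0.06 (adjusted p = 5.82e-05) for EAF1 and 0.79 ± 0.10 (adjusted p = 0.000461) for EAF2 at 6 h, and 0.46 and 0.37 at 24 h. ICE1 rose at 6 h (0.14), and AFF1 (0.25) and ELL (0.26) at 24 h. MLLT1, a reader of acetylated histones, was lower at 24 h (-0.41 ± 0.07, adjusted p = 0.00212).

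A list of 5 genes held HEXIM2 and MEPCE, which act in the 7SK particle, and cyclin K (CCNK) with its kinases CDK12 and CDK13, which are not part of P-TEFb. Of these, CCNK (0.22) and CDK13 (0.21) rose at 6 h. At 24 h CDK13 (0.42 ± 0.06, adjusted p = 0.000787), CDK12 (0.38 ± 0.08, adjusted p = 0.00432) and HEXIM2 (0.26 ± 0.05, adjusted p = 0.00317) did. MEPCE, which caps 7SK RNA, was not called (0.26 at 6 h, adjusted p = 0.0688, and 0.05 at 24 h). Among 4 tested genes of the pausing factors DSIF and NELF, SUPT4H1 rose (0.21 at 6 h and 0.22 at 24 h) and SUPT5H, NELFB and NELFCD were not called. In the list of 7 genes of TFIIS, elongin and FACT, 0 were called at 6 h, and ELOB (0.27), TCEA1 (0.15) and ELOC (0.12) rose at 24 h.

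**Figure D4:**
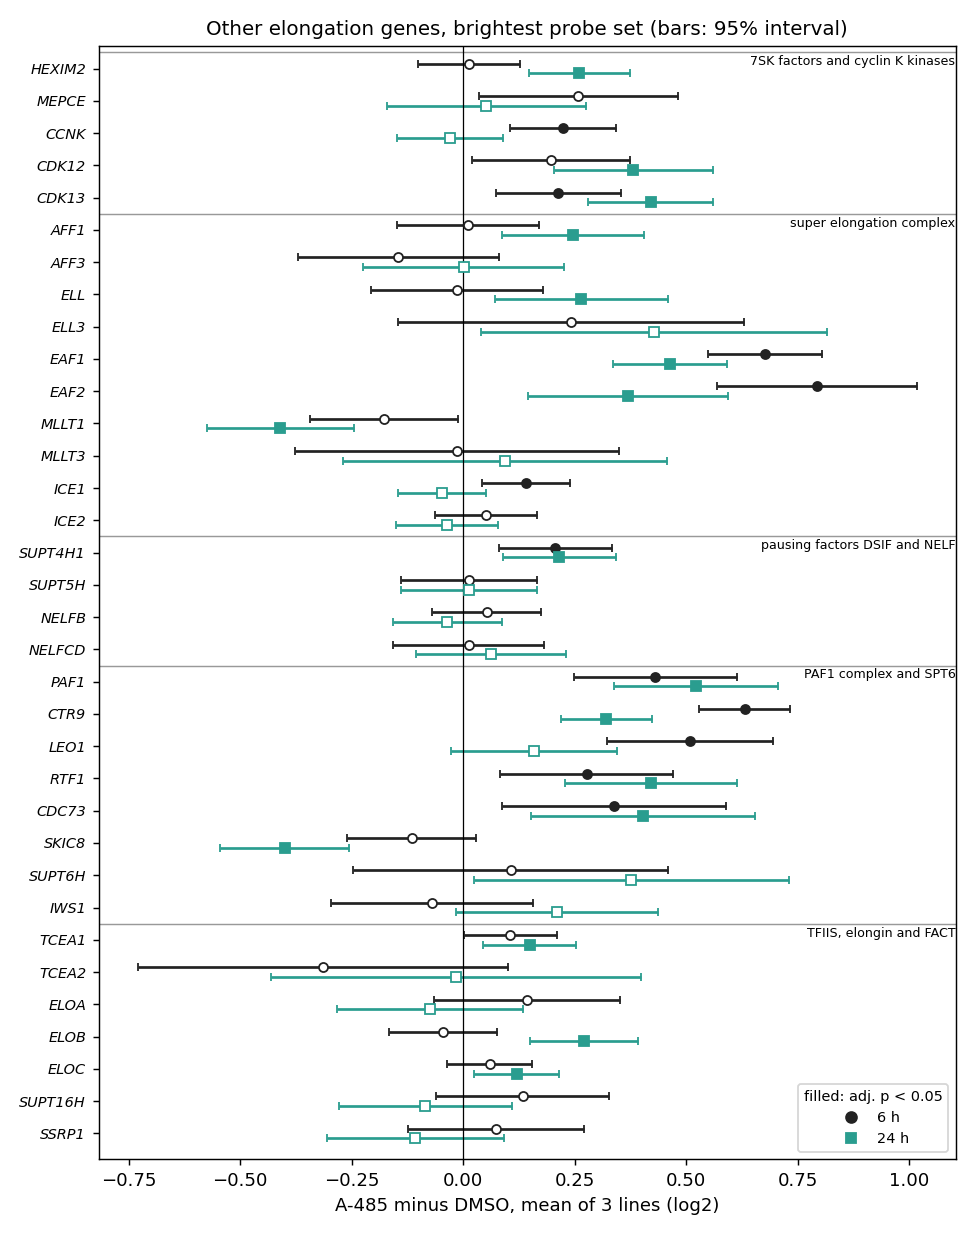
A-485 minus DMSO (log2), mean of the 3 lines, with its 95% interval for 34 other elongation genes grouped by list, at 6 h (circles) and 24 h (squares). Filled symbols are called at an adjusted p under 0.05. CTR9, EAF1 and EAF2 lie furthest to the right at 6 h, at 0.63, 0.68 and 0.79, and SKIC8 and MLLT1 furthest to the left at 24 h, at -0.40 and -0.41.

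A list of 4 genes reported to rise with BET inhibitors, HEXIM1 among them, did not move one way. SERPINI1, a neuronal serpin, rose in both means (0.52 ± 0.07 at each time, adjusted p = 0.000573 and 0.000398). H2BC21, a histone H2B gene, rose by 0.33 ± 0.10 at 6 h (adjusted p = 0.033) and by 1.00 ± 0.10 at 24 h (adjusted p = 0.000114). ZCCHC24, a zinc finger gene, fell by 0.89 ± 0.06 at 6 h (adjusted p = 2.92e-05) and by 0.47 ± 0.06 at 24 h (adjusted p = 0.000523).

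To the question whether HEXIM1, BRD2 and BRD3 rise when p300 and CBP are inhibited, the mRNA values gave a rise of HEXIM1 and BRD2 by 1.97-fold and 1.77-fold at 6 h and by 1.63-fold and 1.46-fold at 24 h as a mean of lines. BRD3 rose by 1.23-fold and 1.16-fold, CCNT1 by 1.28-fold and 1.22-fold, and the kinase CDK9 had 1.04-fold and 0.945-fold, not called. The 24 h means of BRD2, BRD3 and CCNT1 were not called in the additive fit, where differences in response between lines enter the error. In A375 at 24 h HEXIM1 and BRD2 were not called. Whether higher levels of these mRNAs offset lost acetylation was not measured.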

How the data were processed

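Total RNA was labelled with a 3′ IVT kit and hybridised to Affymetrix HG-U133 Plus 2.0 arrays, per the labels' protocols. The authors deposited 1 linear intensity per probe set and array. Which software, background correction and scaling made it is not stated in the sources used here. Of an array's values 19.3% to 22.9% were below 0, and the 75th percentiles ran from 131.7 to 209.2.

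Intensities were quantile normalised between arrays, values under 32 raised to 32, and the log2 computed. The 23262 of 54613 probe sets with a mean log2 of at least 5.5 were fitted as group means over 18 arrays with limma 3.58.1 in R 4.3.3, with 6 residual and 2.126 prior degrees of freedom and Benjamini-Hochberg adjustment within each contrast. Each of 11130 genes was counted by its brightest probe set over all arrays. Quantile normalisation would hide a shift shared by most genes. Unscaled, the median of the probe sets tested moved by 0.48 in WM2664, 0.35 in SKMEL5 and 0.07 in A375 at 6 h, and by 0.30 in the 6 h mean. At 24 h it moved by 0.30 in WM2664, 0 in SKMEL5 and 0.0025 in A375. Deposited medians of replicate DMSO arrays differed too, at 28.2 and 20.9 in SKMEL5 at 24 h. A shift with A-485 therefore cannot be told from the brightness of single arrays. The procedure was tested on simulated data.

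All probe sets of the 9 genes were described. Up to 4 genes per direction and list were named by size, and 3 by likeness to HEXIM1 and to BRD2. The genes and lists were chosen with earlier results of these data known. Replicate numbers did not pair the samples: the DMSO replicate differences of 2 lines correlated at -0.034 to 0.038. Alternatives were another scaling, floor, filter, probe set rule, a replicate block, an additive model and leaving out arrays. The mean of a gene's probe sets took in those that did not pass the filter, which lie near the floor and compress it. Leaving out an A-485 array drops its line from a mean over lines and from the comparison of A375 with the other lines.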

Additional observations from a re-analysis of the deposited data

Results flagged for a closer look

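Several responses differed between lines by a test of the difference itself (limma, Benjamini-Hochberg adjusted). At 24 h the response of A375 was below that of the other lines on all 3 BRD2 probe sets, by -0.76 on 208685_x_at (adjusted p = 0.0303), -0.74 on 214911_s_at (adjusted p = 0.0378) and -0.70 on 208686_s_at (adjusted p = 0.0151), and on HEXIM1 set 202815_s_at by -0.77 (adjusted p = 0.00295). CDK9 gave -0.72 (adjusted p = 0.0415). LARP7 set 241385_at went the other way, at 0.91 (adjusted p = 0.0436), and its intensities of 39.2 to 94.4 lie close to the floor of 32.

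The difference was largest for ELL2. On 226099_at A375 minus the other lines was -1.64 at 6 h (adjusted p = 0.00194) and -1.23 at 24 h (adjusted p = 0.00406). On 226982_at it was -1.28 at 24 h (adjusted p = 0.0206). On 214446_at it was -1.05 at 6 h (adjusted p = 0.0229) and -1.64 at 24 h (adjusted p = 0.00142), with WM2664 at the floor.

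Between times, HEXIM1 set 202815_s_at responded more at 24 h than at 6 h in SKMEL5, by 0.71 (adjusted p = 0.0157). No group held enough arrays to look for an outlying one.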

How the results depend on the processing

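The labels do not pair same-numbered arrays, and the check between lines found no shared replicate effect. That check cannot show whether an A-485 array pairs with DMSO replicate 1 of its own line. With a replicate block, the members called numbered 1 in SKMEL5 at 6 h, 1 in A375 at 6 h and 2 in A375 at 24 h, against 5, 4 and 4 without it, and the other counts stayed within 1.5 times. Of 202 recomputed counts of members called, 169 stayed within 1.5 times. Counts that moved further without scaling were 1 (SKMEL5 6 h), 0 (A375 6 h), 0 (SKMEL5 24 h), 2 (WM2664 24 h), 0 (A375 24 h), 4 (mean at 24 h) and 1 (A375 minus other lines at 24 h). With a common 75th percentile they were 3 in SKMEL5 at each time, with a floor of 16 they were 2 in A375 at 6 h, and with no filter 3 (SKMEL5 6 h), 3 (WM2664 24 h), 2 (A375 24 h) and 1 (A375 minus other lines at 24 h). The mean of a gene's probe sets gave 3 in WM2664 and 2 in A375 at 24 h. The additive model gave 3 in the mean at 24 h. Without the 3 arrays with transcripts of another line the counts were 2 (SKMEL5 6 h), 1 (A375 6 h), 2 (SKMEL5 24 h), 1 (WM2664 24 h), 2 (A375 24 h) and 1 (A375 minus other lines at 24 h). Leaving out 1 array gave 1 to 4 in SKMEL5 at 6 h, 1 to 2 in A375 at either time and 1 to 3 for A375 minus other lines at 24 h. Both means kept 6 or 7 under these.

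Of 1818 recomputed differences 1593 kept their direction and side of the threshold, 55 that were called in neither fit changed sign, 152 were no longer called, 11 became called and 7 reversed. Reversed were BRD3 for A375 minus WM2664 in DMSO without scaling (0.096), AFF4 there without scaling (0.19) and with the mean of its sets (0.56), AFF4 for A375 minus SKMEL5 with the mean of its sets (0.074), and ELL2 in the 6 h mean with the mean of its sets (-0.18) and without 1 array (-0.52 to 0.61), and in the 24 h mean without 1 array (-0.27 to 0.38). The cause was not tested. A lone A-485 array gives no spread of its own, and dim sets near the floor show compressed differences.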
